A study of Homo sapiens with 6 samples.

Results

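The MYC, MAX and MXD network is a set of transcription factors that compete for 1 shared partner. Its 10 members were taken by symbol, MYC, MYCN and MYCL as the MYC family, MAX as the common partner, and MXD1, MXI1, MXD3, MXD4, MNT and MGA as the other proteins that bind MAX. All 10 symbols were found among the 21850 genes of the count table, and all 10 passed the filter on low counts that left 13971 genes for testing. The cells were MM.1S, an established human multiple myeloma line, collected on day 3 after infection with lentivirus. They carried either a scramble hairpin (shNT, 3 libraries, genotype labelled WT) or a hairpin against PRKCN, the gene for protein kinase D3 (shPRKCN, 3 libraries, labelled PRKCN knockdown). All samples are of 1 cell line, the labels do not say which PRKCN hairpin was used, and nothing in them says that the numbered libraries came from separate cultures, so p-values measure only the spread between these libraries. In RNA of whole cultures, fewer cells that express a gene and less RNA per cell cannot be told apart.

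MYC proteins bind DNA as pairs with MAX, at the E-box sequence CACGTG, and raise transcription of genes for cell growth and division. MXD proteins, MNT and MGA bind MAX too and occupy the same sequence, but bring in repressors, the MXD proteins and MNT through SIN3 and histone deacetylases and MGA within a variant polycomb complex. Myeloma cells commonly depend on MYC, and the myeloma factor IRF4 and MYC are known to raise each other's transcription.

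Library totals lay between 35625564 and 37730003 counts, and the 10 members together took between 0.0931% and 0.101% of them. PRKCN, listed as PRKD3, was at 1262 ± 41.7 CPM in shNT and 517.5 ± 23.4 CPM in shPRKCN cells (CPM, counts scaled by TMM to the same library size, mean ± SD, n = 3 each), 41.0% of the control level. IRF4 was at 624 ± 12.5 and 173 ± 3.19 CPM on the same scale. Libraries of a group differed less than libraries of different groups, with a chi-square per degree of freedom of 3.49 to 5.01 against 68.9 to 75.8. The 9 plasma cell markers checked, SDC1 and TNFRSF17 among them, had at least 1242 counts in every library. In shPRKCN cells 6 of them were lower and 1 higher by edgeR's adjusted p (66.7% and 11.1%, against 27.8% and 26.5% of all genes tested). The summed level of these 9 markers per length was 5830 to 5950 FPKM in shNT and 5300 to 5520 FPKM in shPRKCN libraries (FPKM divides by gene length as well as depth). Of 10 markers of other cell types, 3 had at most 3 counts in every library, and the highest count was 1150, for CD3E in an shPRKCN library, while CD3D had at most 1. Of the 4 tested, CD3E was higher, PECAM1 and HBB were lower and EPCAM did not pass (25% higher and 50% lower, against 26.5% and 27.8% of all genes tested). The summed level of those 10 markers was 14.2 to 17.2 FPKM in shNT and 23.1 to 25.8 FPKM in shPRKCN libraries. Within it the mean of CD3E went from 7.93 to 21.3 FPKM, that of PECAM1 from 2.87 to 1.23 FPKM and that of HBB from 5.01 to 1.61 FPKM. The part of either marker list in the results was not tested.

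MXD4 rose, and MXD3 and MYCN fell, past the limits the study used, which are 0.05 for the adjusted p and 0.58 for the size of the log2 fold change. Thus 3 of 10 members were called, 1 higher and 2 lower. Over all genes tested 16.7% were called, 6.15% higher and 10.6% lower. These are 859 and 1475 genes, and DESeq2 run here gave 813 and 1445. At these limits the paper reports more genes in each direction, and the cause of that difference was not tested. Without the fold limit, at 0.05 for the adjusted p alone, 4 members were higher (MXD4, MNT, MYCL and MYC) and 4 lower (MYCN, MXD3, MXI1 and MAX), against 54.2% of all genes tested, 26.5% higher and 27.8% lower. The same 8 had no overlap between the libraries of the groups, as had 58.8% of all genes tested. MXD1 and MGA did not pass the test. The median log2 fold change of the members was 0.06, and that of all genes tested was 0.0012.

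**Figure D1:**
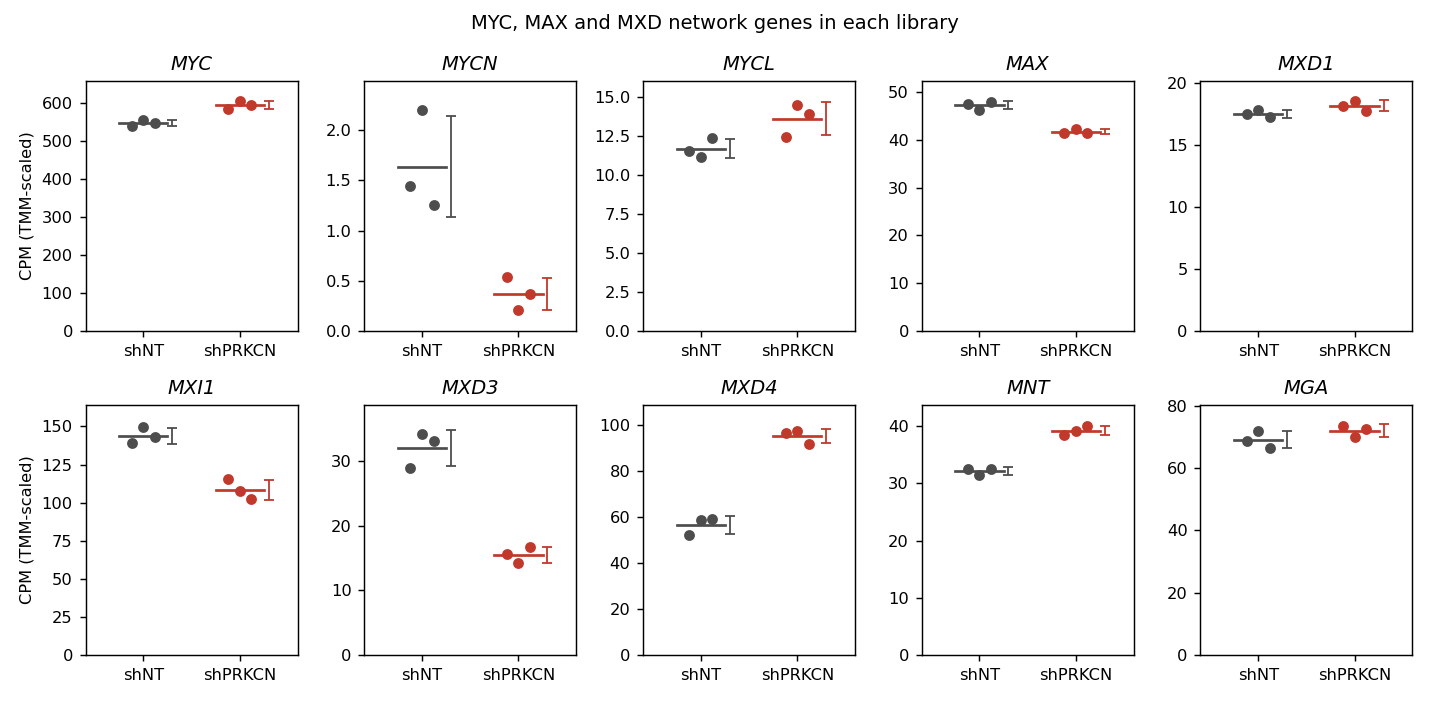
Level of each network gene in CPM after TMM scaling (vertical axes start at 0 and differ between genes) in the shNT and shPRKCN libraries. Points are libraries, lines are group means and bars are SD over 3 libraries. MXD4 lies higher and MXD3 and MYCN lie lower in all 3 shPRKCN libraries, while MXD1 and MGA overlap.

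MYC, the family member that drives growth in most myelomas, was by far the most abundant gene of the network. It lies on chromosome 8 from 127735434 to 127742951 in GRCh38.p14, the build named in the labels, on the plus strand. Its level was 539.5, 555 and 546 CPM in the shNT libraries and 583, 605 and 595 CPM in the shPRKCN libraries. Every shPRKCN library lay above every shNT library, by a small margin. The log2 fold change was 0.12 (standard error, SE, 0.033, 95% interval 0.054 to 0.18, adjusted p = 0.0014 by Benjamini-Hochberg, edgeR quasi-likelihood), so that MYC transcripts stood at 108.6% of the control level and well within the fold limit. By mean FPKM, MYC ranked 359 of the 21850 listed genes. These values are of RNA and do not give the level of MYC protein. The paper reports less MYC protein after PRKCN knockdown in MM.1S cells and places that change after transcription.

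MYCL, the form first described in lung cancer (chromosome 1, 39895428 to 39901917, minus strand), was low, with 406, 410 and 462 counts in the shNT and 463, 537 and 528 counts in the shPRKCN libraries. The groups were separated by 1 count before scaling, and after it by 12.3 against 12.4 CPM. Its log2 fold change was 0.22 (SE 0.092, adjusted p = 0.038 from edgeR's test), and DESeq2 gave an adjusted p of 0.069, so its call is not stable at 0.05. Over the alternatives tried this value lay between 0.0164 and 0.145. It was 0.145 without the second shPRKCN library, 0.118 without the second shNT library, 0.0898 without the first shNT library and 0.0847 without the third shPRKCN library.

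MYCN, the form best known from neuroblastoma (chromosome 2, 15940550 to 15947004, plus strand), was the lowest of the 10, with 51, 81 and 47 counts in the shNT libraries. It had 20, 8 and 14 counts in the shPRKCN libraries, all below the lowest shNT library. The log2 fold change was −2.12 (SE 0.364, 95% interval −2.85 to −1.39, adjusted p = 8.9e-07 from edgeR's test), which left 23.0% of the control level. Ranked by log2 fold change it was number 70 of the 6971 tested genes with a negative value. The second shNT library was the highest by count, and without it the log2 fold change was −1.84. On the log2(FPKM + 1) scale, which compresses low genes, MYCN changed by −0.46 and was not past the fold limit. The paper lists MYCN among the factors it picked on these same libraries, so its change is not independent evidence of that choice.

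Compared per length, the MYC family was almost wholly MYC in both groups. MYC supplied 97.61 ± 0.042% of the summed FPKM of the 3 MYC genes in shNT and 97.82 ± 0.084% in shPRKCN cells (SD, n = 3 each). The sum was 121.2, 125.2 and 122.9 FPKM in the shNT libraries. In the shPRKCN libraries it was 133.2, 136.1 and 136.4 FPKM, above each of them.

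MAX, the partner through which both arms bind DNA (chromosome 14, 65006101 to 65102695, minus strand), had 47.6, 46.2 and 47.8 CPM in shNT and 41.4, 42.3 and 41.4 CPM in shPRKCN libraries. The groups did not overlap and MAX was lower after knockdown, with a log2 fold change of −0.18 (SE 0.052, adjusted p = 0.0025 from edgeR's test), 88.4% of the control level. The ratio of MYC to MAX FPKM, which was not tested, went from 8.22 ± 0.259 to 10.1 ± 0.11 (SD, n = 3 each). The table holds 1 value per gene, so MAX isoforms were not analysed here.

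**Figure D2:**
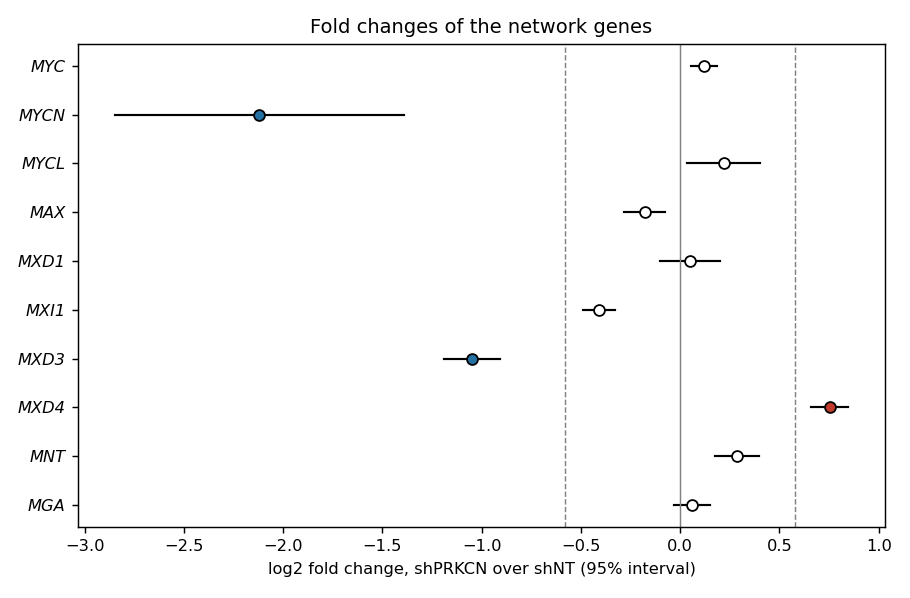
Log2 fold change of each network gene, shPRKCN over shNT, with its 95% interval from edgeR. Dashed lines mark the fold limit of 0.58 in each direction. Filled points passed both limits (MXD4 at 0.75 in red, MXD3 at −1.05 and MYCN at −2.12 in blue). The intervals of MXD4, MXD3 and MYCN lie wholly beyond the limit.

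The antagonists did not move in 1 direction. MXD4, an MXD protein found in differentiating cells (chromosome 4, 2247432 to 2262109, minus strand), rose from 52.1, 58.9 and 59.0 CPM in the shNT libraries to 96.8, 97.7 and 91.9 CPM in the shPRKCN libraries. The lowest shPRKCN library lay far above the highest shNT library. The log2 fold change was 0.75 (SE 0.047, 95% interval 0.66 to 0.85, adjusted p = 8.5e-23 from edgeR's test), or 168.5% of the control level, and it ranked 693 of the 7000 tested genes with a positive value.

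MXD3, the MXD protein known for expression in S phase (chromosome 5, 177305499 to 177312752, minus strand), moved the other way. Its level was 28.9, 34.1 and 33.1 CPM in the shNT libraries and 15.6, 14.2 and 16.7 CPM in the shPRKCN libraries, again without overlap. The log2 fold change was −1.05 (SE 0.071, 95% interval −1.19 to −0.91, adjusted p = 5.1e-21 from edgeR's test), which left 48.4% of the control level. MXD3 shares 1158 exonic bases in GENCODE release 29 with PRELID1 on the plus strand. The strandedness of the counting is not given in the sources used here, so reads of the 2 genes over those bases may not be told apart. PRELID1 had 6112 to 7897 counts per library and was slightly higher in shPRKCN cells, at 110.4% of the control level (adjusted p = 0.0012 from edgeR's test), the opposite direction to MXD3.

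MXI1, an MXD protein whose gene is also known as a target of hypoxia-inducible factor (chromosome 10, 110207605 to 110287365, plus strand), was the most abundant antagonist. It was at 139, 149.7 and 143 CPM in the shNT libraries and 115.5, 107.7 and 102.4 CPM in the shPRKCN libraries. The fall was clear of the library spread but under the fold limit, with a log2 fold change of −0.41 (SE 0.041, 95% interval −0.49 to −0.33, adjusted p = 1.2e-13 from edgeR's test), 75.3% of the control level. MXD1, the founding MXD protein (chromosome 2, 69915109 to 69942945, plus strand), had 17.5, 17.8 and 17.2 CPM in shNT and 18.2, 18.6 and 17.7 CPM in shPRKCN libraries. These ranges overlap, and the log2 fold change of 0.05 had a 95% interval of −0.099 to 0.20 (adjusted p = 0.588 from edgeR's test).

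Summed per length, the 4 MXD genes had totals that overlapped between the groups, while the shares of MXD4, MXI1 and MXD3 did not overlap. The sum was 62.7, 69.3 and 67.0 FPKM in the shNT libraries and 64.7, 61.4 and 60.4 FPKM in the shPRKCN libraries. MXD4 supplied 21.9 ± 0.655% of it in shNT and 39.96 ± 0.889% in shPRKCN cells (SD, n = 3 each). MXI1 went from 56.2 ± 1.06% to 45.7 ± 1.17%, and MXD3 from 17.2 ± 0.675% to 9.02 ± 0.94%. The FPKM of MXD4 relative to that of MXD3 was 1.24 to 1.30 in the shNT and 3.96 to 4.95 in the shPRKCN libraries. These shares are built from members whose separate changes are given above, and they were not tested.

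**Figure D3:**
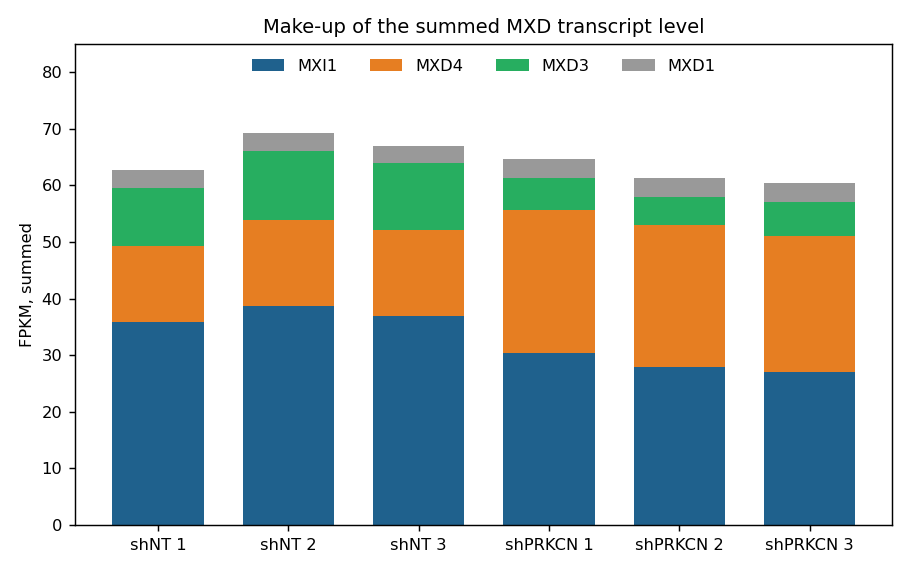
FPKM of MXI1, MXD4, MXD3 and MXD1 stacked for each library (axis from 0). The total lies between 60.4 and 69.3 FPKM in all 6 libraries, and the MXD4 layer is wider and the MXI1 and MXD3 layers narrower in the 3 shPRKCN libraries.

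MNT, a MAX partner present in resting and dividing cells alike (chromosome 17, 2384073 to 2401060, minus strand), had 32.4, 31.4 and 32.6 CPM in shNT and 38.5, 39.1 and 40.1 CPM in shPRKCN libraries. All shPRKCN libraries were above all shNT libraries, with a log2 fold change of 0.29 (SE 0.056, adjusted p = 9.9e-06 from edgeR's test), 122.0% of the control level. MGA, a very large protein with a T-box and a MAX-binding domain (chromosome 15, 41621224 to 41769940, plus strand), had 68.6, 71.9 and 66.5 CPM in shNT and 73.6, 69.8 and 72.6 CPM in shPRKCN libraries. The groups overlap, and its log2 fold change of 0.06 had a 95% interval of −0.030 to 0.15 (adjusted p = 0.264 from edgeR's test). With MNT and MGA added to the MXD genes, the antagonists summed to 71.5 to 78.3 FPKM in shNT and 70.6 to 74.8 FPKM in shPRKCN libraries. The MYC family sum relative to this was 1.64 ± 0.0496 and 1.88 ± 0.0823 (SD, n = 3 each). It is a ratio of RNA levels, does not give the ratio of the proteins and was not tested.

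Promoters were searched for the network's own site, which is short and well defined. RefSeq sequences of GRCh38.p14, from 250 bases before to 50 bases after each gene start, matched 9 of the 10 members, all but MYC, with 14 windows, since some genes have several starts. The letters CACGTG, which read the same on both strands, occurred in 2 of these windows, those of MXD4 and MNT. The windows of the other 7 members do not hold them, that of MYCL included, which was higher by the same test as MXD4 and MNT. Among all 35116 windows, 7.26% hold them. A window of 30 bases around each is shown in the direction of transcription with the motif in capitals, for MXD4 at chr4:2262330-2262359 and for MNT at chr17:2401236-2401265, both on the minus strand.
MXD4: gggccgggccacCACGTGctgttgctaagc
MNT: ccctgcccgggcCACGTGtgcgcgcgccgg
The motif begins 238 bases before the MXD4 start and 193 bases before the MNT start.

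A second search used E2F-type letters, TTTCCCGC, TTTCGCGC, TTTGCCGC and TTTGGCGC on either strand. They occurred in windows of MYCN and MGA and in 3.31% of all windows, and in none of the windows of MXD3, MXI1 and MAX, the other members that were lower. The MYCN window holds a pair of overlapping matches on opposite strands, the first of which lies 176 bases before the start and is shown at chr2:15940362-15940391, plus strand.
MYCN: aagcaagtggctTTTGGCGCgaaagccttg
Where no match was found, this says only that these letters are not in the window. A match is a description of sequence and does not show that a factor binds there.

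By mean FPKM the network ran from MYC at the top to MYCN at the bottom in both groups. In shNT cells the order was MYC (118.4 to 122.2 FPKM), MXI1 (35.9 to 38.7), MAX (14.3 to 14.8), MXD4 (13.3 to 15.1), MXD3 (10.3 to 12.2), MGA (5.23 to 5.66), MNT (3.40 to 3.52), MXD1 (3.08 to 3.20), MYCL (2.29 to 2.53) and MYCN (0.43 to 0.75). MAX and MXD4 were the only neighbours whose libraries overlapped there. In shPRKCN cells MXD4, at 24.1 to 25.3 FPKM, stood above MAX, at 13.1 FPKM in each library, and close below MXI1, at 27 to 30.4 FPKM. MXD3 dropped to 5.07 to 6.08 FPKM, where it overlapped MGA at 5.49 to 5.89 FPKM, and these were the only overlapping neighbours in that group. The lengths behind these values are the 1 length per gene that the FPKM imply, from 2786 bases for MXD3 to 12632 for MGA.

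The genes beside the members were given as a check on their surroundings. Next to MYC, the noncoding RNA PVT1 had a log2 fold change of −0.09 (SE 0.069, adjusted p = 0.279 from edgeR's test), and CASC11 had at most 7 counts in any library. On the DDX1 side of MYCN, NBAS was lower with a log2 fold change of −0.36 (SE 0.048, adjusted p = 1.6e-09 from edgeR's test), while DDX1 itself had −0.06 (SE 0.043, adjusted p = 0.213). The upstream transcript MYCNUT had 11, 5 and 10 counts in shNT and 2, 3 and 0 counts in shPRKCN libraries and was too low to be tested, and the antisense MYCNOS had at most 1 count. Near MYCL, MFSD2A was called lower with a log2 fold change of −0.65 (SE 0.175, adjusted p = 0.0012 from edgeR's test) and TRIT1 had −0.08 (adjusted p = 0.253). Near MAX, CHURC1 had a log2 fold change of 0.01 (adjusted p = 0.910) and FNTB, with 9 to 27 counts in a library, 0.42 (adjusted p = 0.432).

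The MLX branch is a parallel arm in which MLX takes the place of MAX and responds to glucose. MLX had a log2 fold change of 0.10 (SE 0.044, adjusted p = 0.049 from edgeR's test), a value at the threshold that DESeq2 put at 0.0511 and that was no longer under 0.05 with no filter on low counts, with the replicate block, or without shNT library 1 or 2 or any 1 of the shPRKCN libraries. MLXIP, the MLX partner also called MondoA, had a log2 fold change of 0.0068 (adjusted p = 0.924, edgeR), and MLXIPL had at most 1 count in any library. Of its known targets, TXNIP fell from 869 ± 7.42 to 732 ± 11.01 CPM (SD, n = 3 each; log2 fold change −0.25, adjusted p = 6.5e-10 from edgeR's test), and ARRDC4 had −0.19 (adjusted p = 0.352). Of the 4 tested genes, MLX was thus the 1 higher and TXNIP the 1 lower by edgeR (25% each way, against 26.5% and 27.8% of all genes tested).

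Partners that carry out repression went both ways. Of 17 tested, 6 were higher and 3 lower by edgeR's adjusted p (35.3% and 17.6%, against 26.5% and 27.8% of all genes tested), with a median log2 fold change of 0.02. With limma on log2(FPKM + 1) the counts were 3 higher and 4 lower. SIN3B, a scaffold that MXD proteins recruit, rose from 45.4 ± 1.10 to 65.5 ± 2.62 CPM (SD, n = 3 each; log2 fold change 0.53), and the deacetylase HDAC1 rose from 165 ± 2.77 to 213 ± 3.10 CPM (0.37). E2F6, which works with MGA, rose by 0.30 on the log2 scale. SAP30, a subunit of the SIN3 complex, was the 1 gene of this list past both limits, with 36.2 ± 4.65 and 15.3 ± 1.37 CPM (log2 fold change −1.25). CBX3 (−0.27) and TFDP1 (−0.23) were also lower on the log2 scale.

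In the list of partners that MYC uses for activation, no tested gene passed the fold limit. The list is not of such partners alone, since it also holds ZBTB17, which is MIZ1, and the MYC target TFAP4. Of 16 tested, 9 were higher and 4 lower by edgeR's adjusted p (56.2% and 25%, against 26.5% and 27.8% of all genes tested). Values lay between −0.29 and 0.34 on the log2 scale, with a median of 0.10. TFAP4 (0.34), a transcription factor that is itself a MYC target, the elongation kinase CDK9 (0.25) and the chromatin remodeler EP400 (0.23) rose most on the log2 scale. CCNT1, the cyclin of CDK9, fell to −0.29, RUVBL2 to −0.24 and PAF1 to −0.23 on the same scale. TFAP4 is counted again among the cell cycle targets.

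Genes that act on the stability of MYC protein included several mitotic kinases. Of 20 tested, 5 were higher and 9 lower by that test (25% and 45%, against 26.5% and 27.8% of all genes tested). With the fold limit, 1 was called higher and 4 lower, 25% of the list against 16.7% of all genes tested. AURKB fell from 57.1 ± 3.03 to 29.1 ± 0.411 CPM (log2 fold change −0.97), AURKA, which shields MYCN from degradation, from 60.4 ± 2.72 to 37.0 ± 1.499 CPM (−0.71), and CIP2A, an inhibitor of the phosphatase that destabilizes MYC, from 43.0 ± 1.13 to 26.2 ± 1.03 CPM (−0.71; SD, n = 3 for all). SET, another inhibitor of that phosphatase, rose from 346 ± 2.04 to 540 ± 4.85 CPM (0.64), the deubiquitinase USP36 had a log2 fold change of 0.44 and the kinase PIM2 of 0.24. PIM1, of the same kinase family as PIM2, was lower (−0.48), and PIM3 (0.13) did not pass edgeR's test.

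Among textbook targets that MYC activates, the growth genes, which make ribosomes and start translation, had 13 higher and 3 lower of 21 tested by edgeR (61.9% and 14.3%, against 26.5% and 27.8% of all genes tested) and a median log2 fold change of 0.21. UTP20, needed to process ribosomal RNA, rose from 59.1 ± 3.05 to 108.3 ± 1.58 CPM (SD, n = 3 each; log2 fold change 0.87), RRS1 by 0.47 and POLR1B by 0.45 on the log2 scale. NOP58 (−0.30), the cap-binding factor EIF4E (−0.12) and NPM1 (−0.10) were lower on the log2 scale. DESeq2 gave EIF4E an adjusted p of 0.0501, so its fall is not stable at 0.05. With both limits only UTP20 was called, 4.76% of the list against 16.7% of all genes tested.

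Of 26 tested targets in metabolism, 6 were higher and 15 lower (23.1% and 57.7%, against 26.5% and 27.8% of all genes tested), with a median log2 fold change of −0.24. LDHA fell from 3199 ± 52.8 to 1517 ± 32.4 CPM (log2 fold change −1.08), PKM from 1659 ± 32 to 849 ± 37.0 CPM (−0.97) and HK2 from 208.5 ± 0.772 to 109.8 ± 2.47 CPM (−0.93; SD, n = 3 for all), and all 3 are enzymes of glycolysis that hypoxia also induces. Enzymes of nucleotide synthesis went both ways on the log2 scale, with GART (0.37) and CAD (0.27) higher and PRPS2 (−0.74), PPAT (−0.42) and IMPDH2 (−0.27) lower. The polyamine enzymes did too, with SRM higher (0.33) and ODC1 lower (−0.31). With both limits 5 genes of this list were called, all lower, 19.2% against 16.7% of all genes tested.

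Targets in the cell cycle were mostly lower, with 15 lower and 2 higher of 18 tested by edgeR. These are 83.3% and 11.1%, against 27.8% and 26.5% of all genes tested, and the median log2 fold change of the list was −0.53. With both limits 8 were called, all lower, 44.4% of the list against 16.7% of all genes tested. Cyclin A2 (CCNA2) fell from 129 ± 2.55 to 46.2 ± 2.79 CPM (log2 fold change −1.49), the replicative helicase subunit MCM4 from 306 ± 4.39 to 134 ± 2.81 CPM (−1.19) and TERT, the telomerase subunit, from 2.76 ± 0.166 to 1.24 ± 0.16 CPM (−1.16; SD, n = 3 for all). CDK4, with 107.3 ± 1.28 and 120.7 ± 3.81 CPM (0.17), and TFAP4 were the 2 higher genes. The paper reports cell cycle arrest after PRKCN knockdown, and its link to these levels was not tested.

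Genes that MYC represses through MIZ1 and other factors were also mostly lower, with 9 lower and 2 higher of 11 tested. These are 81.8% and 18.2%, against 27.8% and 26.5% of all genes tested, and the median log2 fold change of the list was −0.40. With both limits 1 was called higher and 4 lower, 45.5% of the list against 16.7% of all genes tested. CDKN1A, the cell cycle inhibitor p21, fell from 30.9 ± 1.499 to 16.3 ± 0.361 CPM (log2 fold change −0.92), and NDRG1, which hypoxia induces, from 582 ± 8.44 to 281 ± 9.09 CPM (−1.05; SD, n = 3 for both). NDRG2 was lower at −1.17, TXNIP, counted here as well as in the MLX branch, at −0.25, and the integrins ITGAL (0.60) and ITGB1 (0.34) were higher on the log2 scale. Over all 3 lists of activated targets, 32.3% of 65 tested genes were higher and 50.8% lower without the fold limit, against 26.5% and 27.8% of all genes tested. No difference between these lists was tested, and the lists were written from textbook knowledge and not from binding data in these cells.

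**Figure D4:**
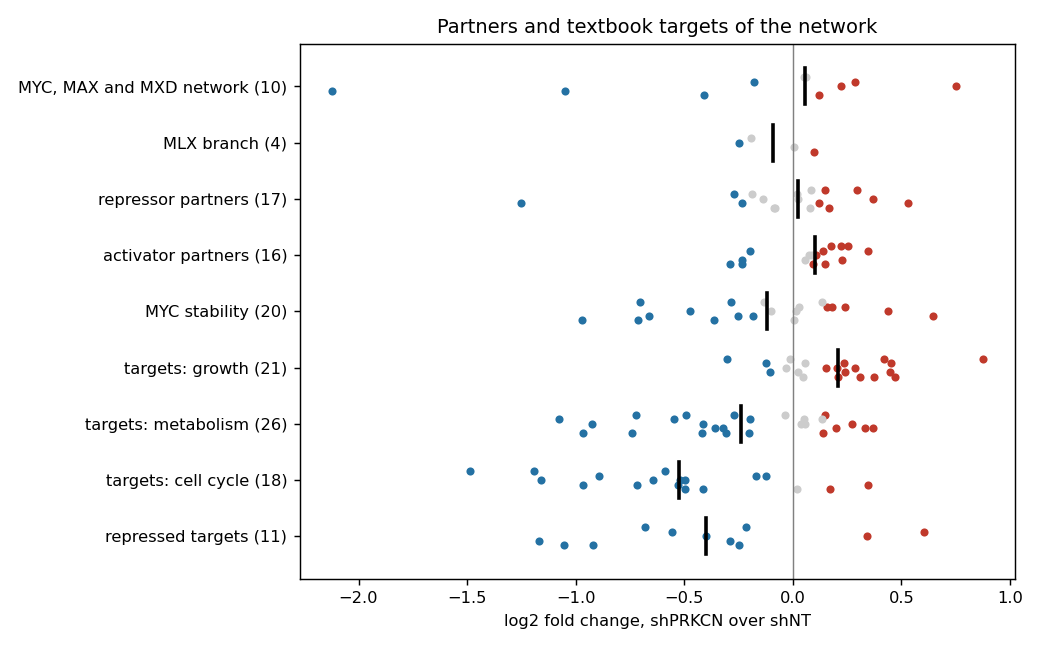
Log2 fold change, shPRKCN over shNT, of every tested gene of the network, of its partners and of textbook MYC targets, with the number tested in parentheses. Red points are higher and blue points lower by edgeR's adjusted p at 0.05, grey points passed in neither direction, and black bars are medians. The medians run from 0.21 for growth targets to −0.53 for cell cycle targets.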

How the data were processed

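RNA-seq counts of 6 MM.1S libraries, 3 shNT and 3 shPRKCN, were analysed; groups were taken from the treatment labels and replicate numbers from the titles. The authors deposited raw counts per gene and FPKM per gene. Per the labels, FastQC, HISAT2, StringTie and the build GRCh38.p14 were used; versions, annotation and strandedness are not given in the sources used here. The paper names DESeq2.

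After TMM scaling, the quasi-likelihood test of edgeR 4.0.16 was run in R 4.3.3 on those 13971 genes that filterByExpr retained, with Benjamini-Hochberg adjustment over all of them. FPKM were used for levels between genes. Alternatives used DESeq2 1.42.0, limma 3.58.1, other scalings and filters, the replicate number as a block and each library left out. The tests were also run on simulated data, where edgeR called 95.4% of 131 genes given a change beyond the fold limit. There 11 unchanged genes passed 0.05 for the adjusted p. Few genes changed in that simulation, against 54.2% passing 0.05 in the real data, so it does not check scaling or error rates under so broad a change.

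The rule for named genes took all members, PRKD3, IRF4, the MLX branch and the neighbouring genes, and from each other list the 3 largest changes in each direction with an adjusted p under 0.05, groups that did not overlap and a mean count of 50 or more. PRELID1, CD3E, CD3D, PECAM1, HBB, EPCAM, SDC1, TNFRSF17, ZBTB17, PIM1, PIM3, PRPS2, PPAT, IMPDH2 and ODC1 were named after their values were seen. The members and lists were chosen with earlier results of these data known. A 2-sided exact permutation test of 1 gene cannot go below p = 0.1 with 3 libraries against 3. CDKN2B, EIF4A1, GACAT3, MYCLP1, CHURC1-FNTB and COL1A2 were not analysed here. Promoter windows came from RefSeq, and exon overlaps from GENCODE release 29 on GRCh38.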

Additional observations from a re-analysis of the deposited data

How the results depend on the processing

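Over 17 fits, MXD3 and MXD4 were past both limits in each, and MYC, MAX, MXI1 and MNT kept their direction and an adjusted p under 0.05 in each. MXD1 and MGA passed 0.05 in none of the 17, with positive values throughout (lowest adjusted p 0.382 and 0.119). MYCN was dropped by a minimum of 10 counts in every library and by an FPKM minimum of 1. MYCL was past 0.05 in 10 of the 17; it missed it with DESeq2 (log2 fold change 0.2236), with limma on log2(FPKM + 1) (0.1716) and log2(FPKM + 0.1) (0.2287) and with some libraries left out, over which it ran from 0.1744 to 0.282. The cause was not tested. Without the fold limit 8 members were called. For all genes the called higher and lower were 315 and 648 with limma on log2(FPKM + 1), 310 and 635 with the FPKM minimum, 3700 and 3877 without the fold limit, and 339 and 821 with glmTreat, which tests against 0.58 and called MYCN, MXD3 and MXD4.

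Lower growth targets numbered 1 with either limma scale. The cell cycle median was −0.4667 with limma on log2(FPKM + 1) and −0.4677 with the minimum, and that of repressed targets was −0.2266 with log2(FPKM + 1), −0.2274 with log2(FPKM + 0.1) and −0.3171 with the minimum. The metabolism median ran from −0.2622 to −0.2217 with single libraries left out. The MLX branch median turned to 0.02288 with the FPKM minimum. Same-numbered libraries did not deviate together (correlations −0.0419, −0.0133 and 0.0038). The labels do not say whether they share a culture or a batch, and these correlations cannot settle it. With the replicate block 3 members, 854 higher and 1463 lower genes were called, and the MXD4 log2 fold change was 0.7539.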
